A study of Mus musculus with 4 samples.

Results

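Splenic B cells stimulated with LPS were examined for the genes through which SREBP, the sterol regulatory element-binding protein, sets the cell's synthesis and uptake of cholesterol and fatty acids. The members were found by symbol from a named list of the SREBP control genes, the enzymes of cholesterol and fatty acid synthesis, and the genes of sterol uptake and efflux. Of 40 symbols, 38 were found among the 30041 genes of the files, Msmo1 and Sc4mol are names of the same gene and are given as Sc4mol, and Hmgcs1 was not analysed here. RNA-seq had been made from C57BL/6 splenic B cells after 72 h with LPS, in 2 control and 2 cKO samples. Both groups carried the floxed and the deleted allele of Nfkbiz (Nfkbiz fl/Δ), so that the controls had a single intact copy, and cKO mice had in addition Mb1-Cre, which is driven by the Cd79a promoter and so deletes the floxed allele in B lineage cells. Cre was present only in cKO samples, so an effect of Cre cannot be told apart from one of the loss of Nfkbiz. Nfkbiz encodes IκB-ζ, a nuclear regulator of NF-κB target genes that is induced by Toll-like receptor ligands. The study does not state how many animals or cultures the samples came from, and p-values therefore measure only the spread between these samples, which may be technical.

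SREBP is made as a precursor in the membrane of the endoplasmic reticulum, where it binds SCAP. When membrane sterol is low, SCAP carries the precursor to the Golgi apparatus, proteases release its transcription factor domain, and this domain turns on the genes of sterol and fatty acid synthesis; when sterol is high, INSIG proteins hold SCAP back. Lymphocytes that enter division make large amounts of membrane, and this program is known to be induced when they are activated.

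Each file gave an RNA-seq score for each gene, a normalized value whose unit the authors do not state. Low scores multiplied by exon length fell on multiples of a fixed step for 76.5 to 82.1% of the low genes of a sample, within 0.2 of a step, so the score appeared to be scaled to exon length and depth, and the step would correspond to 17500000 to 19900000 reads per sample. Nothing but the values themselves gives this depth, and it would be overstated if the actual step were coarser. The step was chosen for its alignment with these same values, and evenly spread values would also fall partly within that tolerance. The share is therefore no independent check of the unit or the depth. Nfkbiz had scores of 0.0241 and 0.0226 in the control samples and 0.0127 and 0.0116 in the cKO samples, so the cKO mean was 51.9% of the control mean over all exons together (limma log2 fold change -0.94, SE 0.0956, adjusted p = 0.0282). The B cell markers were high in all samples, with a summed score of 2.44 and 2.69 in control and 2.31 and 2.30 in cKO. Of the 7 B cell markers, 5 had a log2 fold change below 0 and 2 above. Cd79a, whose promoter drives the Cre, was at 58.3% of the control mean (limma log2 fold change -0.78, adjusted p = 0.0294). Cd79b was at 121% (limma log2 fold change 0.28, adjusted p = 0.234). The 6 T cell markers were all under the filter, at a summed score of 0.00051 and 0.001 in control and 0.00185 and 0.00199 in cKO. Myeloid markers summed to 0.184 and 0.180 in control and 0.203 and 0.209 in cKO, most of it Itgam. Of the 7 myeloid markers, 3 passed the filter and 0 were called: Lyz2 had a log2 fold change of 1.39 (adjusted p = 0.0961), Itgam of 0.00 (adjusted p = 0.988) and Fcgr3 of -0.82 (adjusted p = 0.0745), with Lyz2 higher and Fcgr3 lower at an unadjusted limma p under 0.05. Below the filter, Emr1, Csf1r and Cd14 had both cKO scores above both control scores, at 134, 146 and 202% of the control mean. Their part in the members' results was not tested. Erythroid markers summed to 0.0134 in control 1 and to between 0.00218 and 0.00263 in the other samples. All 18 proliferation markers had a log2 fold change below 0 and 0 were called; 9 of them were lower at an unadjusted limma p under 0.05. Of all genes tested, 51.8% had a log2 fold change below 0, and 11.5% were lower and 10.8% higher at that unadjusted threshold. The summed score of the 18 proliferation markers was 1.84 and 1.74 in control and 1.38 and 1.6 in cKO. Cell cycle genes thus moved in the direction of the members described below, and their part in those results was not tested.

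Of the 38 members, 35 had a score of 0.005 or more in some sample and were tested with the other genes past that filter, 9727 in all. Of the 35, 14 were called lower in cKO B cells at an adjusted p under 0.05 (limma, Benjamini-Hochberg over the 9727 genes) and 0 were called higher. Among all genes tested 1.25% were called lower and 0.812% higher. At an unadjusted limma p under 0.05, 24 of the 35 members were lower, against 11.5% of all genes. The 3 that were higher, Insig2, Npc1 and Mylip, were no larger a share than the 10.8% of all genes. The groups did not overlap for 27 members in which cKO was the lower group, against 30.1% of all genes, and for 4 (Scap, Insig2, Npc1 and Mylip) in which it was the higher, against 28.1% of all genes. The median log2 fold change of the members was -0.65, and that of all genes was -0.01. Of the members, 21 were below the 5th percentile of all genes (-0.45) and 1 was above the 95th percentile (0.48). In whole cultures, fewer cells that express a gene and less of its RNA per cell cannot be told apart.

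The calls depended on having both cKO samples. Without cKO 1 or without cKO 2, 0 members were called lower, and neither was any of the 9727 genes called in either direction. At an unadjusted limma p under 0.05, 21 members were lower without cKO 1 and 25 without cKO 2, against 5.34% and 10.1% of all genes. Without control 1 there were 13 calls, Stard4 being lost, and 161 genes in all were called lower. Without control 2 there were 18 among 391 genes called lower, with Npc1 and Mylip then called higher (log2 fold change 0.70 and 0.64, adjusted p = 0.0435 and 0.039). With no filter on low scores the count was 0, for the members and for all genes, with 25 members and 7.13% of all genes lower at an unadjusted limma p under 0.05, and without the dependence of the variance on the level it was 1, Nsdhl, of 22 genes in all. Under all 13 alternatives tried, the sign of the log2 fold change was kept by every tested member except Ebp, Npc2 and Acss2, none of which was called. Much of this was fixed in advance. Changing the filter, the variance trend or the block leaves the fold change itself as it was. Leaving out a sample cannot reverse a gene whose groups do not overlap.

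**Figure D1:**
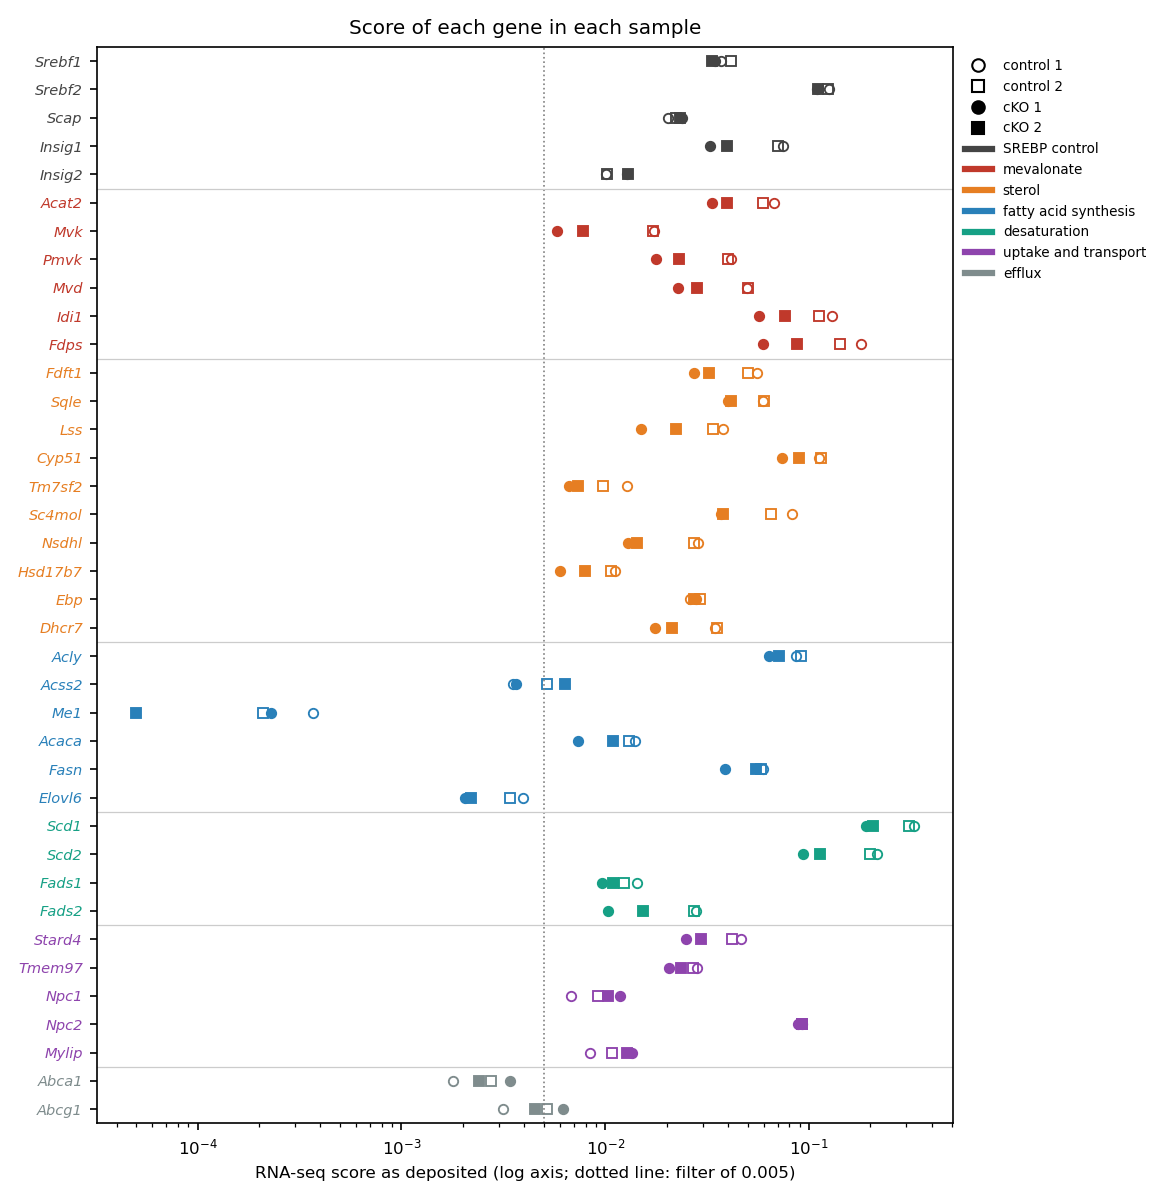
RNA-seq score of each of the 38 members in each of the 4 samples, on a log axis, with open symbols for control, filled symbols for cKO, and a dotted line at the filter of 0.005. In the mevalonate and sterol groups the filled symbols lie to the left of the open ones for 15 of 16 genes, Ebp being the exception, and Me1, Elovl6 and Abca1 lie left of the filter.

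The genes that control SREBP did not move as a group. Srebf1, which encodes the SREBP precursor used mainly for fatty acid genes, had scores of 0.0372 and 0.0413 in control and 0.0345 and 0.0334 in cKO. Srebf2, the precursor used mainly for cholesterol genes, had 0.125 and 0.124 in control and 0.110 and 0.111 in cKO. Scap, the sterol-sensing escort, had 0.0202 and 0.0223 in control and 0.0237 and 0.0233 in cKO. The groups did not overlap for any of these, but the differences were small and not called (log2 fold change -0.21, -0.18 and 0.15, adjusted p = 0.255, 0.241 and 0.382). Scap shares 985 exon bases with 5830462I19Rik on the other strand.

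Both INSIG genes encode proteins that retain SCAP in the endoplasmic reticulum, and Insig1 is itself a classical SREBP target whereas Insig2 is not. The Insig1 score was 0.0745 and 0.0702 in control and 0.0328 and 0.0394 in cKO, a fall to 49.9% of the control mean (log2 fold change -1.01, SE 0.112, adjusted p = 0.0294). Insig2 had 0.0101 and 0.0102 in control and 0.0128 and 0.0129 in cKO, 127% of the control mean (log2 fold change 0.34, SE 0.0917, adjusted p = 0.126). The replicates of Insig2 lay close together in both groups and the groups did not overlap, yet the gene did not pass the test. The ratio of the Insig1 to the Insig2 score within a sample was 7.36 and 6.88 in control and 2.56 and 3.04 in cKO. The Srebf2 to Srebf1 ratio was 3.36 and 3.0 in control and 3.18 and 3.31 in cKO, so the cKO values lay inside the control range. Such ratios do not depend on how a library was scaled as a whole.

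The RefSeq promoters of these genes, 250 bases before and 50 bases from the annotated start on (GRCm38.p6), were read for a pair of motifs on both strands, the SRE-like letters TCACNCCA of a sterol response element and the CCAAT box letters CCAAT, where the last letters of the former, CCA, can be the first of the latter. Promoters were found for 29 of the 38 members; Fdps, Fdft1, Sqle, Scd1, Scd2, Fads1, Stard4, Npc1 and Abcg1 were not matched. Shown are the pair of members with an SRE-like match, the INSIG pair and the gene with the largest fold change, in the direction of transcription (for Insig2 the start with the most matches of 3), with matches to either motif or its complement in capitals.
Srebf2, chr15:82147019-82147318, plus strand: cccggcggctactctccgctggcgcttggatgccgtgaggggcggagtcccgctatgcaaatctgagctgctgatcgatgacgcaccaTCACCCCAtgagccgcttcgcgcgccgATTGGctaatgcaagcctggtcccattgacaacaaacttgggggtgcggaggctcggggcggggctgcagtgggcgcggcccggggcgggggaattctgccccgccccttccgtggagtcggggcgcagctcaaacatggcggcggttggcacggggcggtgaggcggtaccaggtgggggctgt
Sc4mol, chr8:64733529-64733828, minus strand: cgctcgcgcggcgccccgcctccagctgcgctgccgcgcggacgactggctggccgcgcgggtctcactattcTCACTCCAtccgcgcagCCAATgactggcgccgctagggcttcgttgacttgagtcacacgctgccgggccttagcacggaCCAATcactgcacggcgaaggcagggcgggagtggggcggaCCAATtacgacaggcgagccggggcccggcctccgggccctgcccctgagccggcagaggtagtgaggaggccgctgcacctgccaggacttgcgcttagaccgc
Insig1, chr5:28071162-28071461, plus strand: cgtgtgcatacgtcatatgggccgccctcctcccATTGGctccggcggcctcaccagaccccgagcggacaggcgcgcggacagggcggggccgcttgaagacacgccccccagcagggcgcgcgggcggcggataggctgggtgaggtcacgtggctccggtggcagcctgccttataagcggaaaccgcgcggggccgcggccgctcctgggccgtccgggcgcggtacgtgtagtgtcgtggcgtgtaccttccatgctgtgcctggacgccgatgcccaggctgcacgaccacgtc
Insig2, chr1:121332540-121332839, minus strand: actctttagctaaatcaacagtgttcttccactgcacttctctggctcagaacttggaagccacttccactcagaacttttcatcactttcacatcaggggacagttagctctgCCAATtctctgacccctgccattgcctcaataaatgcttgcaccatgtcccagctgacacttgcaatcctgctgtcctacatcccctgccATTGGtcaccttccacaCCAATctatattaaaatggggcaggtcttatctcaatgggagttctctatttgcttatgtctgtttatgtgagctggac
Mvk, chr5:114444019-114444318, plus strand: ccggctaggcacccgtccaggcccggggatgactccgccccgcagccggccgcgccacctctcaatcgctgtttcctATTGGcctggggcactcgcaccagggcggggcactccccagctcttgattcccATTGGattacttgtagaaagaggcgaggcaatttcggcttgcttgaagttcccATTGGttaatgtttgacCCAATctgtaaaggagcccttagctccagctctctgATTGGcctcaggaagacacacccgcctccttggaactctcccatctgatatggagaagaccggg

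In the Srebf2 promoter the SRE-like match began at position -162 from the annotated start and a CCAAT box in the reverse orientation at -135. Sc4mol had its SRE-like match at -177 and CCAAT boxes at -160, -96 and -55. Mvk held 5 CCAAT boxes and Insig1 a single one, neither with an SRE-like match. Over the matched members, the SRE-like letters were in 2 of 29 (6.90%), and in 4.97% of the 27025 genes with a promoter in the table. CCAAT was in 23 of 29 (79.3%), in 41.1% of all genes and in 43.5% of the 7278 genes past the filter. Of members called lower, 7 of 9 (77.8%) held the box, and of members tested and not called, 15 of 17 (88.2%) did. A match of letters is a description of the sequence, and its absence says only that the letters are not in this window.

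**Figure D2:**
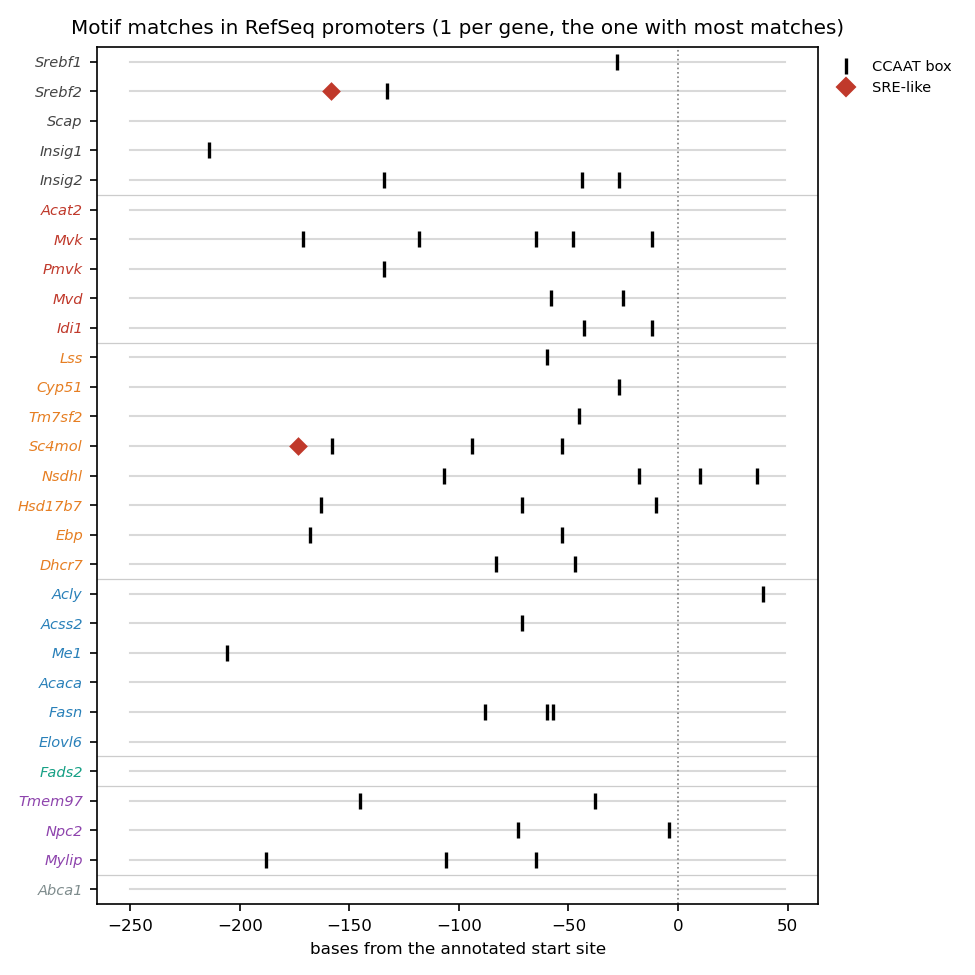
Positions of CCAAT (black ticks) and SRE-like (red diamonds) matches in the RefSeq promoters of the 29 matched members, in bases from the annotated start, for the promoter with the most matches of each gene. The 2 diamonds are in Srebf2 and Sc4mol, and 23 of the 29 genes hold at least 1 tick.

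The genes of cholesterol synthesis were lower as a group. Of 16 members, from Acat2 to Dhcr7, all had a log2 fold change of 0 or below, with Ebp at 0.00 when rounded. For 15 of them the groups did not overlap and cKO was the lower group, against 30.1% of all genes tested. Of the 16, 9 were called lower, against 1.25% of all genes tested. The median log2 fold change of the 16 members was -0.86. Their summed score was 0.945 and 0.856 in control and 0.460 and 0.562 in cKO, 56.7% of the control mean, and the summed score of all genes tested was at 97.0%.

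The mevalonate steps turn acetyl-CoA into the isoprenoid farnesyl diphosphate. Acat2, the cytosolic thiolase that joins acetyl-CoA units, had scores of 0.0669 and 0.0592 in control and 0.0334 and 0.0395 in cKO (log2 fold change -0.79, SE 0.118, adjusted p = 0.0411). Mvk, mevalonate kinase (chr5:114894278-114910600, plus strand, NCBIM37), had 0.0174 and 0.0172 in control and 0.0058 and 0.00779 in cKO (log2 fold change -1.35, SE 0.154, adjusted p = 0.0294). This was the largest difference among the 35 members, with the cKO mean at 39.3% of control, and the cKO samples differed more from each other than the control samples did. Pmvk, phosphomevalonate kinase, had 0.0414 and 0.0402 in control and 0.0177 and 0.0229 in cKO (log2 fold change -1.01, SE 0.135, adjusted p = 0.0345). Mvd, the decarboxylase that makes isopentenyl diphosphate, had 0.0497 and 0.04998 in control and 0.0228 and 0.0283 in cKO (log2 fold change -0.97, SE 0.121, adjusted p = 0.0331). For each of these 4 enzymes the gap between the groups was wider than that between replicates of a group.

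The last enzymes of the mevalonate group, Idi1 and Fdps, had higher scores in all samples than the kinases and the decarboxylase, and larger SEs of the difference. Idi1, isopentenyl diphosphate isomerase, had 0.130 and 0.112 in control and 0.0570 and 0.0760 in cKO (log2 fold change -0.87, SE 0.156, adjusted p = 0.0599). Fdps, farnesyl diphosphate synthase, had 0.180 and 0.142 in control and 0.0597 and 0.0870 in cKO (log2 fold change -1.15, SE 0.203, adjusted p = 0.0579). Neither was called, although both groups were apart for each gene. With the replicate number as a block both were called (adjusted p = 0.0205 and 0.0128), as they were without control 2 (adjusted p = 0.0212 and 0.0155). Over the 6 mevalonate members the median log2 fold change was -0.99, and it was -0.82 without cKO 1 and -1.16 without cKO 2.

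The committed sterol steps begin with squalene. Fdft1, squalene synthase, had scores of 0.0554 and 0.0504 in control and 0.0272 and 0.0323 in cKO (log2 fold change -0.83, SE 0.114, adjusted p = 0.0362). Sqle, squalene epoxidase and a rate-limiting enzyme of the pathway, had 0.0596 and 0.0602 in control and 0.0402 and 0.0413 in cKO (log2 fold change -0.56, SE 0.0787, adjusted p = 0.0376). Lss, lanosterol synthase, had 0.0380 and 0.0339 in control and 0.0149 and 0.0223 in cKO (log2 fold change -0.97, SE 0.193, adjusted p = 0.076). Sqle thus had a smaller difference than its neighbours with the tightest replicates, and Lss a larger one that was not called, with cKO 1 well below cKO 2. Fdft1 shares 769 exon bases with Ctsb and Lss 381 with 4930483K19Rik, each on the other strand, and without strand in the counting the reads of such stretches cannot be told apart.

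From lanosterol onward, the demethylation enzymes were divided between called and uncalled genes. Sc4mol, a methyl oxidase that removes methyl groups of the sterol ring, had scores of 0.0826 and 0.0652 in control and 0.0370 and 0.0377 in cKO (log2 fold change -0.97, SE 0.127, adjusted p = 0.0345). Nsdhl, its partner dehydrogenase, had 0.0284 and 0.0271 in control and 0.0130 and 0.0143 in cKO (log2 fold change -1.02, SE 0.0935, adjusted p = 0.0215), the lowest adjusted p among the members. Dhcr7, the reductase of the last step to cholesterol, had 0.0346 and 0.0352 in control and 0.0176 and 0.0212 in cKO (log2 fold change -0.85, SE 0.113, adjusted p = 0.0345). These 3 genes kept between 49.2 and 55.6% of their control mean.

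Of the other sterol enzymes, Cyp51 (lanosterol demethylase), Tm7sf2 (a sterol reductase) and Hsd17b7 (a ketosteroid reductase) had both cKO scores below both control scores and were not called. Cyp51 had 0.112 and 0.114 in control and 0.0733 and 0.0889 in cKO (log2 fold change -0.49, adjusted p = 0.101). Tm7sf2 had 0.0128 and 0.0098 in control and 0.00663 and 0.00731 in cKO (log2 fold change -0.68, adjusted p = 0.101). Hsd17b7 had 0.0112 and 0.0106 in control and 0.00597 and 0.00797 in cKO (log2 fold change -0.65, adjusted p = 0.112). Tm7sf2 shares 532 exon bases on the same strand with 1110014N23Rik, so its score is less certain. Ebp, the isomerase between these enzymes and the last reductions, was the only cholesterol synthesis member for which the groups overlapped. Its scores were 0.0260 and 0.0290 in control and 0.0278 and 0.0271 in cKO. Its cKO values lay inside the control range (limma log2 fold change 0.00 when rounded, SE 0.0929, adjusted p = 0.995).

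**Figure D3:**
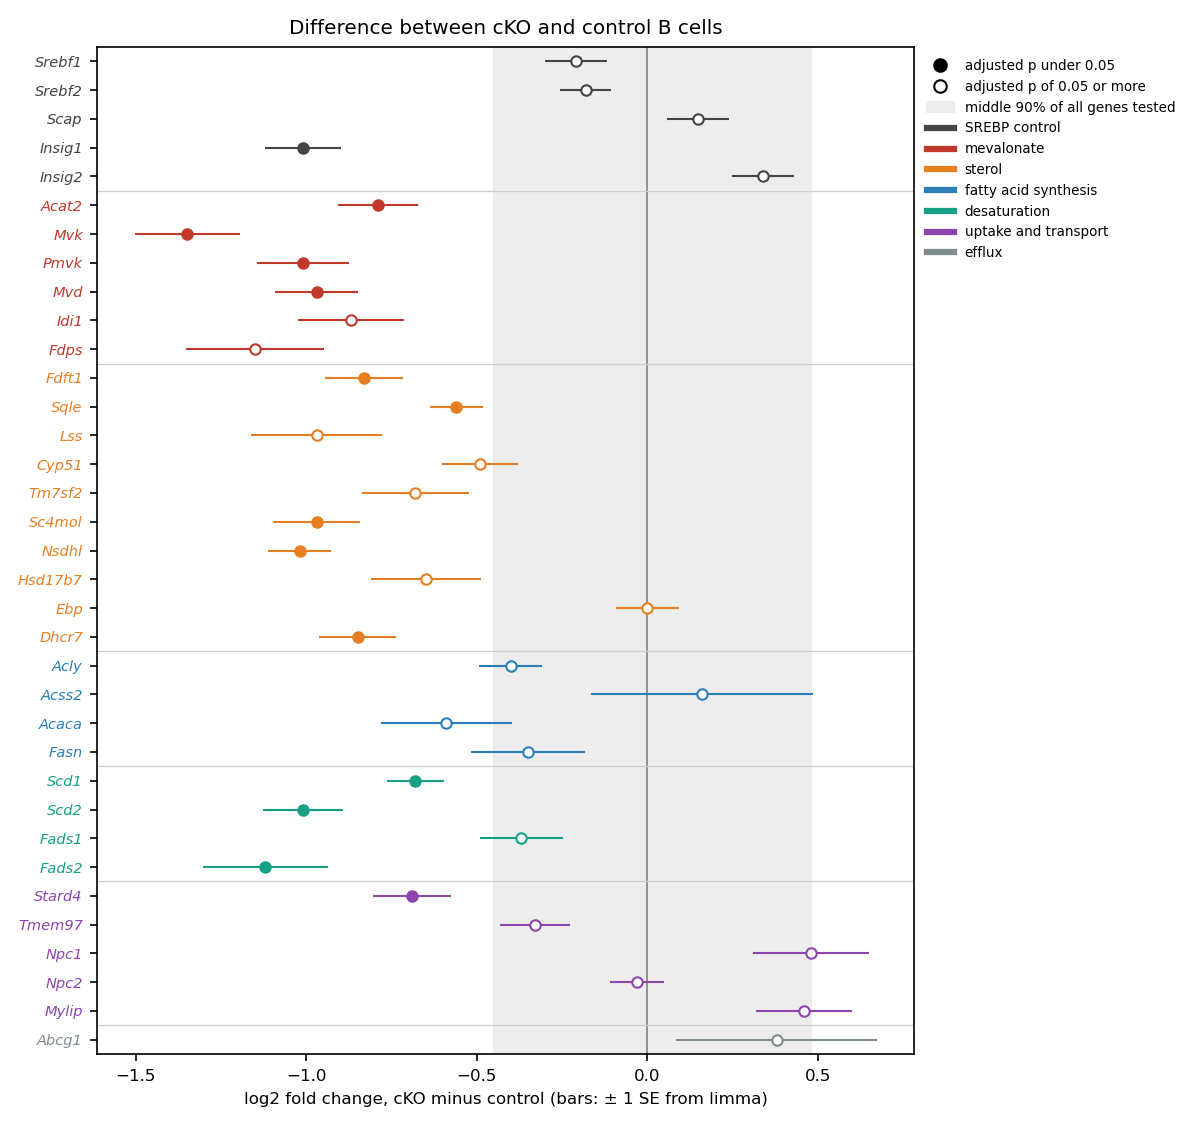
Log2 fold change (cKO minus control) of the 35 members tested with bars of 1 SE from limma, filled where the adjusted p was under 0.05. The shaded band runs from the 5th to the 95th percentile of all 9727 genes (-0.45 to 0.48), and 21 members lie to its left, most of them enzymes of cholesterol synthesis and desaturation.

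In the fatty acid synthesis group 4 of 6 members were tested and 0 were called, with a median log2 fold change of -0.38. Of the 4, 2 (Acly and Acaca) were lower at an unadjusted limma p under 0.05, against 11.5% of all genes tested. Acly, which makes cytosolic acetyl-CoA from citrate, had scores of 0.0866 and 0.0915 in control and 0.0636 and 0.0711 in cKO (log2 fold change -0.40, SE 0.0926, adjusted p = 0.1). Acaca, the carboxylase that commits acetyl-CoA to fatty acids, had 0.0139 and 0.0130 in control and 0.00731 and 0.0109 in cKO (log2 fold change -0.59, SE 0.192, adjusted p = 0.168). Fasn, the fatty acid synthase, had 0.0597 and 0.0579 in control and 0.0389 and 0.0550 in cKO (log2 fold change -0.35, SE 0.166, adjusted p = 0.283). For Acaca and Fasn the cKO samples were farther from each other than the nearer of them was from control: the log2 fold change of Fasn was -0.10 without cKO 1 and -0.60 without cKO 2.

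Acss2, which makes acetyl-CoA from acetate, overlapped between the groups at 0.00354 and 0.00519 in control and 0.00365 and 0.00635 in cKO (log2 fold change 0.16, SE 0.326, adjusted p = 0.785). Its log2 fold change went from 0.56 without cKO 1 to -0.23 without cKO 2, so it had no stable direction, and 761 of its exon bases overlap genes on the other strand. Elovl6, which lengthens palmitate, was below the filter with scores of 0.00393 and 0.00341 in control and 0.00204 and 0.0022 in cKO. With a filter of at least 0.001 its log2 fold change was -0.76 (limma SE 0.168, adjusted p = 0.106). Me1, malic enzyme, a source of NADPH, was hardly seen at 0.00037 and 0.00021 in control and 0.00023 and 0.00005 in cKO, which would be 3 to 24 reads by the inferred depth. Just inside the filter were Abcg1 and Acss2, with a largest score of 0.00622 and 0.00635, and just outside were Elovl6 and Abca1, with 0.00393 and 0.00341.

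The desaturases put double bonds into fatty acids, SCD enzymes into saturated chains and FADS enzymes into polyunsaturated ones. Of these 4 members 3 were called lower, against 1.25% of all genes tested. The log2 fold changes of the 4 ran from -1.12 to -0.37 and overlapped those of the synthesis group. The difference between these groups was not tested. On the score scale, which appeared to be per exon length, Scd1 had the highest level of any member, 0.326 and 0.310 in control and 0.191 and 0.207 in cKO (log2 fold change -0.68, SE 0.0831, adjusted p = 0.0331). Scd2 had 0.215 and 0.199 in control and 0.0932 and 0.113 in cKO (log2 fold change -1.01, SE 0.116, adjusted p = 0.0294). Both stearoyl-CoA desaturases were called lower, and the Scd2 to Scd1 ratio within a sample was 0.658 and 0.643 in control and 0.488 and 0.548 in cKO. On NCBIM37 they lie close together on chromosome 19, Scd2 at chr19:44368166-44381354 on the plus strand and Scd1 at chr19:44468941-44482199 on the minus strand.

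Fads1 and Fads2 are also neighbours on that chromosome, at chr19:10257378-10271360 (plus) and chr19:10138654-10175993 (minus). Fads2 had scores of 0.0277 and 0.0273 in control and 0.0104 and 0.0153 in cKO (log2 fold change -1.12, SE 0.182, adjusted p = 0.0488). Fads1 had 0.0143 and 0.0124 in control and 0.00964 and 0.0110 in cKO (log2 fold change -0.37, SE 0.122, adjusted p = 0.17). The Fads2 call was near the threshold and was lost with quantile normalization or a filter of at least 0.001. It was also lost with no filter, without a variance trend and without either cKO sample. The Fads2 to Fads1 ratio was 1.93 and 2.20 in control and 1.08 and 1.39 in cKO. For Insig1 to Insig2, Scd2 to Scd1 and Fads2 to Fads1 the groups did not overlap; these ratios are descriptions without a test, and with 2 samples a group the smallest two-sided p of an exact permutation test is 0.333.

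**Figure D4:**
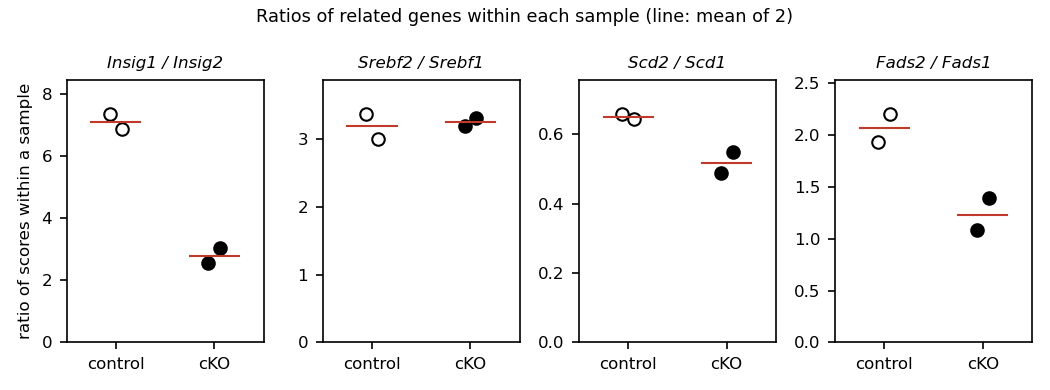
Ratio of the scores of related genes within each sample (points) with the mean of the 2 samples of a group (line), each axis starting at 0. The cKO points lie below the control points for Insig1/Insig2, Scd2/Scd1 and Fads2/Fads1 and inside the control range for Srebf2/Srebf1.

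The genes of sterol uptake and transport did not share a direction, with a median log2 fold change of -0.03. These 5 genes hold no lipoprotein receptor, and 1 of them, Mylip, acts against such receptors. Their median is therefore no measure of uptake. Stard4, a carrier of free sterol between membranes that SREBP induces, had scores of 0.0462 and 0.0417 in control and 0.0250 and 0.0295 in cKO (log2 fold change -0.69, SE 0.114, adjusted p = 0.0499). This call stood at the threshold. It was lost with sample medians made equal, quantile normalization or a filter of at least 0.001 (limma adjusted p = 0.0523, 0.0564 and 0.0627). The call was also lost with no filter, without a variance trend, and without control 1, cKO 1 or cKO 2. It was kept with a pseudocount of 0.001, with either block of replicates and without control 2. Tmem97, a sterol-responsive membrane protein that binds NPC1, had 0.0283 and 0.0270 in control and 0.0205 and 0.0236 in cKO (log2 fold change -0.33, adjusted p = 0.156).

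Npc1 and Npc2 export cholesterol from lysosomes. The Npc1 scores were 0.00678 and 0.0092 in control and 0.0118 and 0.0104 in cKO (log2 fold change 0.48, SE 0.171, adjusted p = 0.194). Npc2 had 0.0918 and 0.0923 in control and 0.0885 and 0.0923 in cKO, a difference smaller than its SE (log2 fold change -0.03, SE 0.0778, adjusted p = 0.859). Mylip, a ubiquitin ligase that degrades lipoprotein receptors and is induced by the sterol sensor LXR, had 0.00844 and 0.0108 in control and 0.0135 and 0.0129 in cKO (log2 fold change 0.46, SE 0.14, adjusted p = 0.152). Npc1 and Mylip thus had both cKO scores above both control scores without passing the test. In both genes the control samples were the ones farther apart.

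The efflux transporters Abca1 and Abcg1, which move cholesterol out of the cell and are LXR targets as well, were low in all samples. Abca1 had 0.00178 and 0.00275 in control and 0.00341 and 0.00239 in cKO, below the filter, and Abcg1 had 0.00316 and 0.00517 in control and 0.00622 and 0.0045 in cKO. The groups overlapped for both (Abcg1 log2 fold change 0.38, SE 0.295, adjusted p = 0.476). The Abcg1 difference ranged from 0.03 without control 1 to 0.73 without control 2.

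The cKO samples also differed from each other along the members. The score of cKO 1 was below that of cKO 2 for 15 of the 16 cholesterol synthesis members (93.8%), for 29 of the 35 members tested (82.9%) and for 53.7% of all genes. The median log2 difference of cKO 1 from cKO 2 was -0.24 over the members and -0.01 over all genes. Control 1 was below control 2 for 5 of the 16, for 14 of the 35 (40.0%) and for 51.7% of all genes. The median log2 difference of control 1 from control 2 was 0.04 over the 35 and -0.01 over all genes. Among the 29 members with a log2 fold change below 0, cKO 1 was thus the lower cKO sample for 27. Proliferation markers also summed lower in cKO 1 (1.38) than in cKO 2 (1.6), and the part of this in the members' values was not tested.

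Of 25 other genes of these pathways, 22 were tested. At an unadjusted limma p under 0.05, 5 were lower and 0 higher, against 11.5% and 10.8% of all genes. Of the 22, 2 were called lower and 0 higher, against 1.25% and 0.812% of all genes. Of those called, Sc5d, a sterol desaturase, had scores of 0.0510 and 0.0529 in control and 0.0335 and 0.0366 in cKO (log2 fold change -0.57, SE 0.0879, adjusted p = 0.0433). The median log2 fold change of the 22 genes, which include the SREBP proteases, the degradation machinery of INSIG proteins and the protein prenylation enzymes, was -0.11. Both calls were lost without cKO 1 and without cKO 2.

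**Figure D5:**
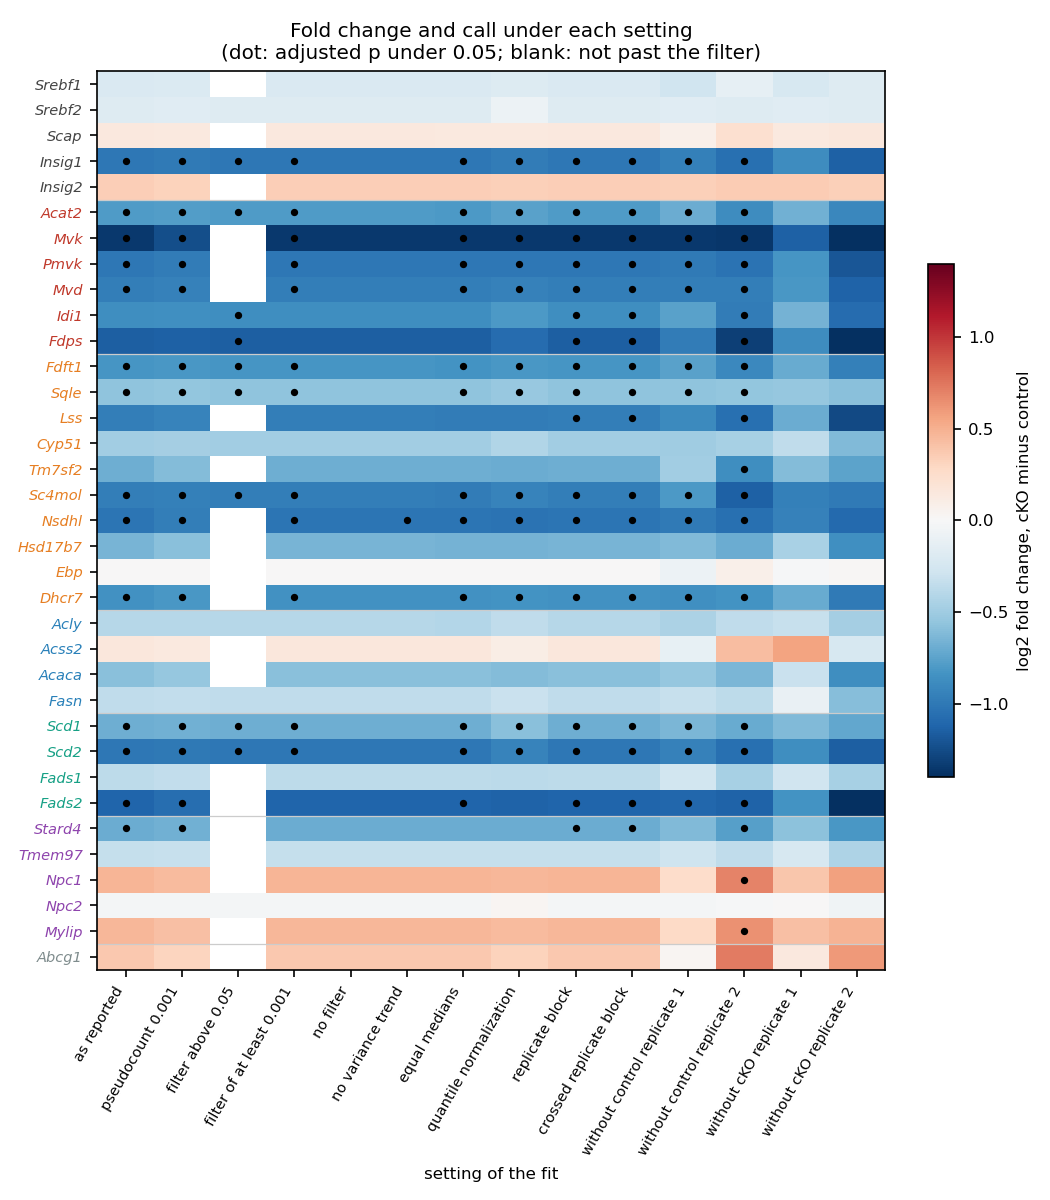
Log2 fold change (colour) and call (dot, adjusted p under 0.05) of the 35 members tested under the reported fit and 13 alternatives, with blanks where a gene was not past that filter. The colour of most genes changes little between columns, whereas the dots are absent without a filter and without either cKO sample, and Nsdhl holds the only dot without a variance trend.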

How the data were processed

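Poly(A) RNA of 2 control and 2 cKO samples had been sequenced by the authors, with reads mapped to mm9 with TopHat2 2.0, filtered on base quality and cleared of rRNA and tRNA with bedtools. The deposited value is an RNA-seq score per gene, and the step from mapped reads to the score is not given in the sources used here. The library kit does not mark strand.

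Groups were taken from the labels. Genes that reached 0.005 in any sample were tested with limma 3.58.1 (R 4.3.3; lmFit and eBayes with trend, two-sided) on log2(score + 0.0001); p-values were adjusted by Benjamini-Hochberg over 9727 genes, with a threshold of 0.05. Fold changes are on that scale, which understates those of low genes. The script was tested on simulated data. Members and lists were chosen with earlier results of these data known. The rule was to name every member found, and of the other pathway genes those called. Among the latter, 1 is not reported here. Depth was inferred from the step of low scores, with exon lengths of the GENCODE annotation of NCBIM37 (mm9). Intervals on counts were not possible. Alternatives changed the pseudocount, filter, variance trend, scaling, block and samples. Further cell surface, antibody and reporter measurements were not analysed here. Python 3.11.15, pandas 2.3.3, numpy 2.4.6 and matplotlib 3.10.9 were used for tables and figures.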

Additional observations from a re-analysis of the deposited data

How the results depend on the processing

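Of 434 values of single members under alternatives, 352 kept their direction and side of the threshold. A further 7 (of Ebp, Npc2 and Acss2, not called in any fit) changed sign. The direction was kept and the call lost in 61, and 14 gained a call. The direction could not change under another filter, block or variance trend, which leave the fold change as it was. Members called lower were 14 as reported, 9 with a filter above 0.05 (14 tested), 0 with no filter, 1 without a variance trend and 0 to 18 when a sample was left out; members called higher were 0 to 2 when a sample was left out. Genes called lower, 122 as reported, were 0 with no filter, 22 without a variance trend, 230 with the crossed block and 0 to 391 with a sample left out. Genes called higher, 79 as reported, were 35 with a filter above 0.05, 0 with no filter, 11 without a variance trend, 177 with the replicate block, 212 with the crossed block and 0 to 439 with a sample left out. Other pathway genes called lower, 2 as reported, were 0 with a filter of at least 0.001, no filter, no variance trend or quantile normalization, and 0 to 3 with a sample left out. The median of the SREBP control genes was -0.59 with a filter above 0.05, which leaves Insig1 and Srebf2, and -0.08 with quantile normalization. With a sample left out, the median ranged from -1.16 to -0.82 for mevalonate, from -0.91 to -0.65 for sterol and from -0.75 to -0.54 for all members. The cause was not tested.

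The study does not state that same-numbered RNA-seq samples belong together, so the numbers were not taken to pair samples. Same-numbered samples did not deviate together (Pearson -0.145, Spearman -0.291 over 9727 genes). With 2 samples a group these correlations cannot decide whether samples were paired. The replicate block gave 17 members called lower, as did the crossed block, which was chosen after seeing the data; both gained Idi1, Fdps and Lss. With 2 samples a group, a fit without a sample leaves a lone sample that is assumed to vary like the other group.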
